A study of Mus musculus with 14 samples.

Results

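The SREBP genes of cholesterol and fatty acid synthesis were followed through mTORi-induced dormancy in 14 RNA-seq libraries of mouse embryonic stem (ES) cells. The group was defined by a list of 34 gene names, of which 18 encode enzymes of sterol synthesis, 10 encode enzymes of fatty acid synthesis, elongation and desaturation, and 6 encode the SREBP machinery and an intracellular sterol carrier. All 34 names matched 1 gene identifier each among the 54446 in the deposited tables, and all 34 passed the filter on low values that left 18232 genes for testing. Their mean level over all libraries lay between 5.77 and 176 TPM, a length-normalized share of each library's transcripts.

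All libraries came from E14, a mouse ES cell line grown without feeders in serum and LIF. Wild-type cells were collected before treatment (0 h) and after 24, 72 and 144 h with an mTOR inhibitor (mTORi), which is used to place ES cells in a state resembling diapause. The paper names INK128 or RapaLink-1 for ES cells or embryos and INK128 for its ES cell growth curves. Its RNA-seq method does not name the drug. *Tet1/2* DKO cells were collected at 0, 24 and 72 h. The DKO line was made from E14 by Cas9 deletion at *Tet1* and *Tet2* with sorting of single cells, so that any difference between the genotypes is that of 1 clone from its parent. Each of the 7 groups had 2 replicates, and p-values measure only the spread between these libraries. The 2 genotypes share the E14 background, and both were untreated at 0 h.

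SREBP1 (*Srebf1*) and SREBP2 (*Srebf2*) are transcription factors made as precursors in the membrane of the endoplasmic reticulum. When sterols are low, SCAP escorts the precursor to the Golgi, where proteases release the active factor. When sterols are high, INSIG proteins hold SCAP and the precursor back. SREBP2 mainly drives genes of cholesterol synthesis and SREBP1c genes of fatty acid synthesis, and mTORC1 is known to favour SREBP activity in many cell types.

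SREBP is known to act at promoters together with NF-Y and Sp1, and the start sites of the genes were searched for letters of their motifs. Promoter windows from 250 bases before to 50 bases after the start were taken from RefSeq (GRCm38.p6) and were found for 27 of the 34 genes. Both strands were searched for the sterol regulatory element core TCACNCCAC, the E-box CACGTG, the NF-Y motif CCAAT and the Sp1 motif GGGCGG. The NF-Y motif CCAAT was present for 22 of the 27 genes (81.5%), against 41.1% of all 27025 genes with a window. The Sp1 motif was present for 23 (85.2%), against 38.2%. The E-box was present for 5 (18.5%), against 8.09%. Counted by window, CCAAT lay in 63.9% of the 36 windows of these genes, against 37.4% of all 32851. GGGCGG lay in 75% of them, against 35.7%. The background held all genes with a window, expressed in these cells or not. Expressed genes alone were not compared, so the shares do not show a trait particular to SREBP genes. All other shares given here are by gene. The full sterol element core was found at *Hmgcs1* alone (3.70%, against 1.44%), and the shorter TCACNCCA, which lies inside it and was searched after the first result was seen, at *Hmgcs1*, *Msmo1* and *Srebf2* (11.1%, against 4.97%). These 3 promoters are printed, since they hold the shorter form of the sterol element beside CCAAT and GGGCGG, and that of *Elovl6* is printed because it was called higher than at 0 h at the later times in deposited TPM, though not on the spike-in scale. None of the searched letters were in the window of *Elovl6*, and none in that of *Acaca*, which fell like most of the genes. Capitals mark the matches, on either strand.
Hmgcs1 (chr13:119690101-119690400, plus strand): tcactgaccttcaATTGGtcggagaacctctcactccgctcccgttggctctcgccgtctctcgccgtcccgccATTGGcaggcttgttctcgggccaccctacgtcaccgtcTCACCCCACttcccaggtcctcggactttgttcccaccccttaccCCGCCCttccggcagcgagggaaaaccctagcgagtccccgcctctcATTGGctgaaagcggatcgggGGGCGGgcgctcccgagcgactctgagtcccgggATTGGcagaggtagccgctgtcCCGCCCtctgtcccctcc
Msmo1 (chr8:64733529-64733828, minus strand): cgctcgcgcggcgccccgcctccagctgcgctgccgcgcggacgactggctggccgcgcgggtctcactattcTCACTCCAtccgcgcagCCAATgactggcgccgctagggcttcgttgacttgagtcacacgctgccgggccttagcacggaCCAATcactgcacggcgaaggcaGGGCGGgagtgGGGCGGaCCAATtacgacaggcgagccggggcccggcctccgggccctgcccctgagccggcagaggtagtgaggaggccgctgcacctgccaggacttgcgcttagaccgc
Srebf2 (chr15:82147019-82147318, plus strand): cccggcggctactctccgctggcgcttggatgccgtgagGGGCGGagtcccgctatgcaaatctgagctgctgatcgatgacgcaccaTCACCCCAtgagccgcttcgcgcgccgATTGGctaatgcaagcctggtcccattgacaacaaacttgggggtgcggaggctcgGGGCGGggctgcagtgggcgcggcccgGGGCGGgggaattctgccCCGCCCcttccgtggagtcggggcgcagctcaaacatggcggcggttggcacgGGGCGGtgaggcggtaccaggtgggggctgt
Elovl6 (chr3:129532136-129532435, plus strand): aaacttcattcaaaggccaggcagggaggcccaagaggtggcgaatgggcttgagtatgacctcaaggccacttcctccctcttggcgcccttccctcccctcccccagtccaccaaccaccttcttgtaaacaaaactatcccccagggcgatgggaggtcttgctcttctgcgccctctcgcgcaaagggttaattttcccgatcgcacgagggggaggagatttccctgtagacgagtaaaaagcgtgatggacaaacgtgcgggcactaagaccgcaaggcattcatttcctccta
The first match of the shorter TCACNCCA lay 137 bases upstream of the start at *Hmgcs1*, 177 at *Msmo1* and 162 at *Srebf2*. A match is a run of letters and was not tested for binding.

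Values are given as deposited TPM and as spike-in normalized TPM, in which each library was scaled by the factor of the authors' ERCC spike-in normalization so that a loss of RNA from the whole transcriptome is kept. How the factors were derived from the spike-in reads is not given in the sources used here. The factors fell from 2.11 in both wild-type 0 h libraries to 1.07 and 1.0 after 144 h. They differed between replicates by as much as 2.24 against 1.36 after 24 h in DKO cells. The median difference of all genes tested from 0 h was −0.33 after 24 h, −0.33 after 72 h and −0.83 after 144 h in wild-type cells on the spike-in scale (log2), and −0.01, 0.04 and 0.05 in deposited TPM. In these bulk samples, fewer cells of a type and less RNA per cell cannot be told apart. *Tet2* lay between 96.0 and 143 TPM in wild-type and between 15.9 and 22.2 TPM in DKO libraries, while *Tet1* ranged from 191 to 349 and from 147 to 248 TPM, lower in DKO than in wild-type libraries at each shared time but not absent. The sum over 6 pluripotency genes was between 2193 and 2810 TPM in every library. The sum over 7 primitive endoderm genes was 13.2 and 43.3 TPM at 0 h, 106 and 185 TPM after 24 h, 13.9 and 39.4 TPM after 72 h and 13.9 and 13.1 TPM after 144 h in wild-type cells. In DKO cells it was 41.5 and 13.8, 71.5 and 31.0, and 34.4 and 24.0 TPM at 0, 24 and 72 h. The part of these cells in the 24 h values given next was not tested. Trophectoderm genes summed to at most 11.9 TPM and neural genes to at most 17.4 TPM. The neural sum was lower after 24 h than at 0 h, at 8.27 and 6.82 against 14.7 and 17.4 TPM in wild-type cells. In DKO cells it was 5.35 and 6.46 against 13.5 and 11.4 TPM. After 72 h it was 10.8 and 11.1 TPM in wild-type and 10.9 and 11.4 TPM in DKO cells.

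After 24 h of mTORi, the share of transcripts taken by the 34 genes was lower than at 0 h in both genotypes. They made up 0.172% and 0.165% of TPM in the wild-type 0 h libraries and 0.0936% and 0.0836% after 24 h. The share was 0.118% and 0.109% after 72 h and 0.151% and 0.150% after 144 h. In DKO cells it was 0.176% and 0.199% at 0 h, 0.0989% and 0.106% after 24 h and 0.134% and 0.132% after 72 h. The 24 h libraries were thus the lowest of each genotype, and the 144 h libraries lay near, but still below, those of 0 h.

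**Figure D1:**
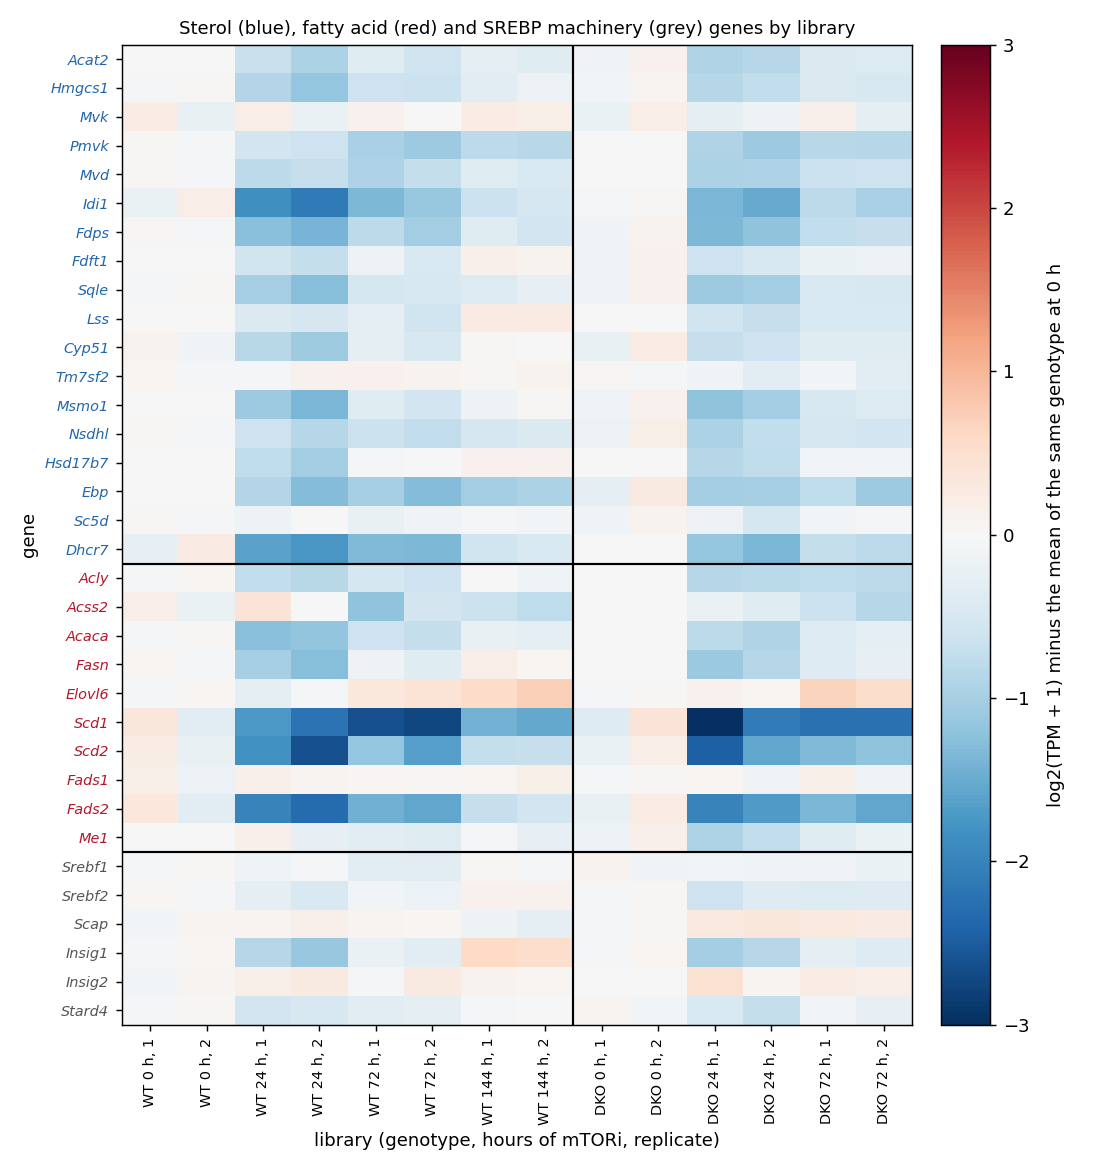
Level of each of the 34 genes (rows, sterol enzymes in blue, fatty acid enzymes in red, SREBP machinery and sterol carrier in grey) in each of the 14 libraries (columns), as log2(TPM + 1) minus the mean of the same genotype at 0 h. Most rows are lowest after 24 h and paler at later times, Scd1 stays low throughout, and Elovl6 lies above its 0 h level from 72 h on in wild-type and from 24 h on in DKO cells.

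On the spike-in scale, 20 of the 34 genes fell after 24 h in wild-type cells (limma, adjusted p under 0.05), where 8.73% of all genes tested were called lower, and 0 rose, against 1.25% of all genes. The 20 were 13 sterol enzymes, 6 fatty acid enzymes and *Insig1*. The count was 12 without wild-type 0 h replicate 1 (3.12% of all genes), 10 without wild-type 0 h replicate 2 (1.58%) and 10 without wild-type 24 h replicate 1 (1.46%). In deposited TPM, 24 genes fell (15 sterol, 6 fatty acid and 3 of the machinery, against 14.1% of all genes) and 0 rose, against 15.8%, and this count stayed between 22 and 24 when any single library was left out. In DKO cells 25 genes fell after 24 h on either scale, against 18.7% of all genes after spike-in normalization and 13.3% in deposited TPM. None rose on the spike-in scale (0.505% of all genes), and *Scap* alone rose in deposited TPM (11.6% of all genes), a call that was lost without any 1 of the 4 DKO 0 and 24 h libraries.

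At 72 h, 15 genes were called lower in wild-type cells on the spike-in scale (7.6% of all genes) and 0 higher (0.697%). With a block for the replicate number within each genotype the count was 26, against 25.4% of all genes. The unblocked count was 5 without wild-type 0 h replicate 1 (2.33% of all genes), 3 without 0 h replicate 2 (0.883%), 8 without 72 h replicate 1 (2.44%) and 1 without 72 h replicate 2 (0.318%). In deposited TPM 19 genes were lower (11.4%) and 1, *Elovl6*, was higher (12.6%), which was not called without any 1 of the 4 libraries compared. In DKO cells after 72 h, 8 genes were lower on the spike-in scale (2.95%) and 0 higher (0.713%). The blocked fit gave 22, against 13.2%. Leaving out 1 library gave between 1, without DKO 72 h replicate 2 (0.362% of all genes), and 17, without DKO 24 h replicate 1 or 2 (7.95% and 7.93%). It gave 3 without either library of wild-type 0, 72 or 144 h or of DKO 0 h, where between 0.878% and 2.3% of all genes were called lower. In deposited TPM 19 were lower (9.06%), and *Scap* and *Elovl6* were higher (17.2%). The count of 19 was 8 without DKO 0 h replicate 2 (3.81%) and 9 without DKO 72 h replicate 1 or 2 (3.58% and 4.82%). *Elovl6* was called whichever library was left out, and *Scap* was not called without any 1 library of DKO 0 or 72 h or of wild-type 24, 72 or 144 h.

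At 144 h in wild-type cells the scales parted. With the replicate block 32 genes were lower on the spike-in scale, when 66.3% of all genes were called lower. Without that block 30 genes were lower on this scale, when 50.5% of all genes were called lower, and 0 were higher (0.461%). This count was 19 without 0 h replicate 1 or 2 (34.9% and 23.9% of all genes) and 16 without 144 h replicate 2 (21.5%). In deposited TPM 11 were lower (32.4% of the 34, against 11.7% of all genes), and *Insig1* and *Elovl6* were higher (15.6%). The 11 were *Pmvk*, *Mvd*, *Idi1*, *Fdps*, *Nsdhl*, *Ebp* and *Dhcr7* among sterol enzymes and *Acss2*, *Acaca*, *Scd1* and *Fads2* among fatty acid enzymes. Without 0 h replicate 1 or 2 the count was 4 or 7, beside 8.84% and 6.03% of all genes, and without 144 h replicate 1 or 2 it was 5 or 2, beside 5.78% and 5.1%.

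**Figure D2:**
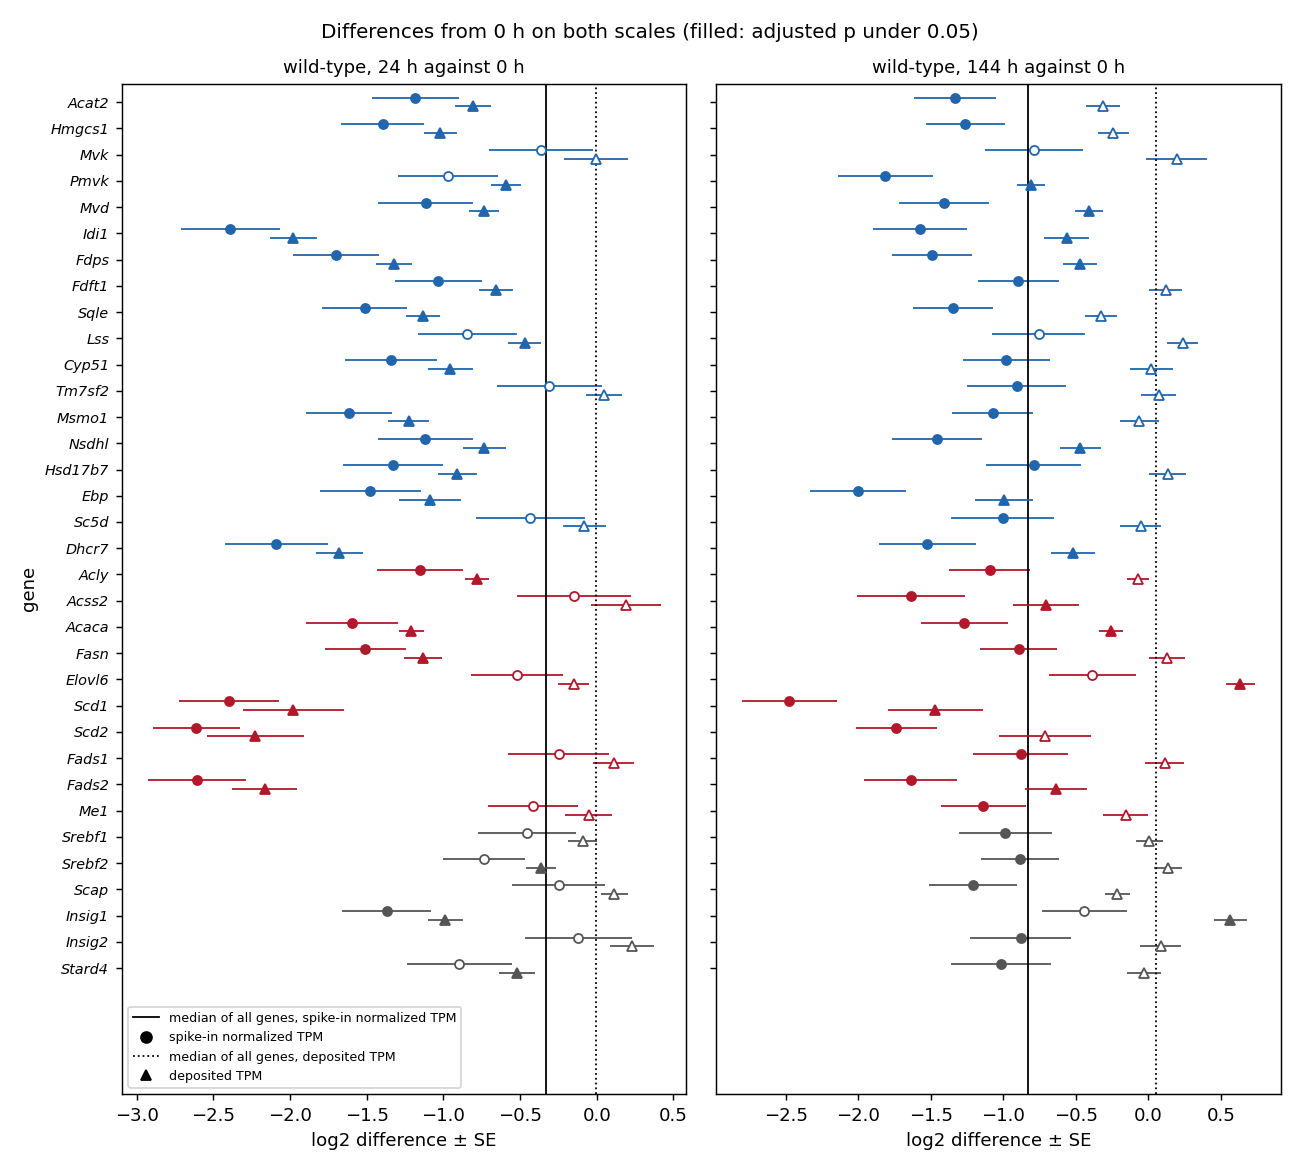
Log2 difference from 0 h ± SE for each gene in wild-type cells after 24 h (left) and 144 h (right), after spike-in normalization (circles) and in deposited TPM (triangles), filled where the adjusted p was under 0.05. At 24 h most sterol and fatty acid genes lie left of both all-gene medians (lines), and after 144 h the all-gene medians of the 2 scales stand apart, at −0.83 and 0.05.

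Among the SREBP machinery, *Insig1* had the clearest course. INSIG1 retains SCAP in the endoplasmic reticulum, and its gene is itself an SREBP target. Its level (chr5:28071363-28078662, mm10, plus strand) was 31.8 and 34.1 TPM at 0 h, 17.9 and 14.5 after 24 h, 28.5 and 26.0 after 72 h and 50.3 and 48.0 after 144 h in wild-type cells. The 24 h libraries were lower and the 144 h libraries higher than every other wild-type library. DKO libraries had 36.3 and 39.9 TPM at 0 h, 18.3 and 20.6 after 24 h and 31.6 and 28.8 after 72 h. The difference after 24 h was −1.37 ± 0.29 (log2, SE, spike-in scale, limma adjusted p = 0.0058) and −0.99 ± 0.11 in deposited TPM. At 144 h it turned from −0.44 ± 0.29 on the spike-in scale (limma adjusted p = 0.2) to 0.56 ± 0.11 in deposited TPM (limma adjusted p = 0.0056).

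*Srebf2*, which encodes SREBP2 and was the most abundant gene of this group, measured 76.8 and 69.7 TPM at 0 h, 60.3 and 53.3 after 24 h, 68.6 and 64.6 after 72 h and 80.6 and 80.5 after 144 h in wild-type cells. DKO cells had 85.6 and 90.5, 57.0 and 66.9, and 66.1 and 66.7 TPM at 0, 24 and 72 h. In both genotypes the 24 h libraries lay below those of 0 h, by −0.36 ± 0.10 in wild-type (limma adjusted p = 0.017) and −0.50 ± 0.10 in DKO cells (limma adjusted p = 0.0044) in deposited TPM. On the spike-in scale the values were −0.73 ± 0.27 (limma adjusted p = 0.085, and 0.011 with the replicate block) and −1.07 ± 0.27 (limma adjusted p = 0.01).

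*Srebf1*, which encodes SREBP1, moved little as a share of transcripts. It was at 19.9 and 21.0 TPM at 0 h, 18.7 and 19.6 after 24 h, 16.1 and 16.0 after 72 h and 21.2 and 20.0 after 144 h in wild-type cells, and in DKO cells at 26.7 and 23.2, 23.6 and 22.7, and 23.3 and 21.5 TPM at 0, 24 and 72 h. The 72 h wild-type libraries were the lowest, at −0.33 ± 0.09 from 0 h in deposited TPM (limma adjusted p = 0.028). The 24 h difference was −0.46 ± 0.32 on the spike-in scale and −0.09 ± 0.09 in deposited TPM, and neither passed the test. *Rai1* overlaps *Srebf1* on the opposite strand, with a mean of 9.10 TPM.

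*Scap* and *Insig2* were not called lower after 24 h in either genotype on either scale. *Scap*, the SREBP escort, had 20.8 and 23.0 TPM at 0 h, 23.2 and 24.3 after 24 h, 23.1 and 22.9 after 72 h and 19.5 and 18.0 after 144 h in wild-type cells. DKO libraries had 26.3 and 27.9, 33.4 and 34.3, and 33.3 and 32.4 TPM, so that both treated DKO groups lay above all other libraries. *Insig2*, the other retention gene, was at 9.80 and 11.2 TPM at 0 h, 12.1 and 12.8 after 24 h, 10.3 and 12.8 after 72 h and 11.4 and 10.9 after 144 h in wild-type cells. DKO libraries had 11.3 and 11.7, 16.3 and 12.3, and 13.5 and 13.3 TPM, and in both genotypes the 24 h libraries lay above those of 0 h without passing the test. *Stard4*, which encodes a soluble carrier of cholesterol, dropped from 15.8 and 16.7 TPM at 0 h to 10.6 and 11.4 after 24 h (−0.52 ± 0.12 in deposited TPM, limma adjusted p = 0.0073) and measured 12.9 and 13.2 after 72 h and 15.4 and 16.3 after 144 h. In DKO cells it was 18.0 and 16.0, 12.0 and 9.93, and 15.9 and 14.2 TPM. After spike-in normalization its wild-type 24 h value was −0.90 ± 0.34 (limma adjusted p = 0.099, and 0.006 with the replicate block). The block called 24 of the 34 genes lower in this comparison, against 25.7% of all genes.

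Within the sterol branch, whose enzymes build cholesterol from acetyl-CoA through mevalonate, isoprenoids and squalene, the median difference after 24 h was −1.26 on the spike-in scale (all genes −0.33) and −0.86 in deposited TPM (all genes −0.01) for the wild-type. The range over the 18 genes was −2.39 to −0.31 on the spike-in scale. In DKO cells the median was −1.44 on the spike-in scale (all genes −0.49) and −0.86 in deposited TPM (all genes 0.0057). The summed level of the branch was 712 ± 6.82 TPM (SD, n = 2) at 0 h, 357.5 ± 34.8 after 24 h, 453 ± 28.8 after 72 h and 583 ± 3.81 after 144 h in wild-type cells, which after 24 h was 50.2% and after 144 h 81.9% of the 0 h level. DKO cells stood at 52.2% after 24 h and 70.2% after 72 h.

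*Idi1* encodes the isomerase that makes the reactive isoprenoid unit and showed the largest drop of the branch after 24 h. Its level (chr13:8885501-8892451, mm10, plus strand) was 34 and 44.7 TPM at 0 h, 10.2 and 8.16 after 24 h, 14.7 and 17.1 after 72 h and 24.7 and 27.4 after 144 h in wild-type cells. No treated library reached the lower 0 h replicate. DKO cells had 34.6 and 36.8, 13.2 and 11.8, and 20.3 and 17.7 TPM. The wild-type 24 h difference was −2.39 ± 0.32 on the spike-in scale (limma adjusted p = 0.00022) and −1.98 ± 0.15 in deposited TPM.

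*Dhcr7*, the reductase of the last step to cholesterol, followed the same order. It was at 22.8 and 32.7 TPM at 0 h, 8.23 and 7.49 after 24 h, 10.3 and 10.1 after 72 h and 17.9 and 19.7 after 144 h in wild-type cells, and at 29.3 and 29.1, 12.5 and 10.6, and 17.5 and 16.5 TPM in DKO cells. All treated libraries lay below all 0 h libraries. The difference after 24 h was −2.09 ± 0.33 for the wild-type and −1.85 ± 0.33 for DKO cells on the spike-in scale (limma adjusted p = 0.00097 and 0.0013).

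*Ebp* and *Pmvk* stayed below their 0 h level to the last time of treatment. *Ebp*, the sterol isomerase, was at 27.1 and 26.2 TPM at 0 h, 14.1 and 10.3 after 24 h, 12.9 and 10.2 after 72 h and 12.4 and 13.4 after 144 h in wild-type cells. DKO libraries had 19.1 and 28.4, 10.8 and 11.2, and 13.3 and 10.4 TPM. *Pmvk*, the second kinase of the mevalonate route, was at 26.8 and 25.3 TPM at 0 h, 17.3 and 16.6 after 24 h, 12.8 and 11.8 after 72 h and 14.7 and 14.2 after 144 h, and in DKO cells at 20.9 and 20.4, 10.5 and 9.12, and 11.1 and 10.9 TPM. For both genes the treated libraries lay below every 0 h library of their genotype. At 144 h *Ebp* differed from 0 h by −2.0 ± 0.33 on the spike-in scale (limma adjusted p = 0.00026) and −1.0 ± 0.20 in deposited TPM, and *Pmvk* by −1.81 ± 0.33 (limma adjusted p = 0.00044) and −0.81 ± 0.10.

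*Hsd17b7*, which encodes a sterol ketoreductase, also fell after 24 h, but its later levels in deposited TPM were near that of 0 h. It was at 6.36 and 6.19 TPM at 0 h, 3.27 and 2.51 after 24 h, 5.93 and 6.37 after 72 h and 6.95 and 7.01 after 144 h in wild-type cells, and at 7.56 and 7.60, 3.75 and 4.06, and 7.06 and 7.05 TPM in DKO cells. In deposited TPM only the 24 h libraries stood clearly apart. It fell after 24 h by 1.33 ± 0.33 on the log2 spike-in scale (limma adjusted p = 0.014), and its 144 h value was −0.79 ± 0.33 on that scale (limma adjusted p = 0.048) and 0.13 ± 0.13 in deposited TPM (limma adjusted p = 0.46).

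*Mvk*, the first kinase of the mevalonate route, was not called after 24 h on either scale without the replicate block. It was at 17.8 and 12.9 TPM at 0 h, 17.6 and 13.0 after 24 h, 16.7 and 15.0 after 72 h and 17.9 and 17.1 after 144 h in wild-type cells, and between 11.2 and 16.1 TPM in DKO cells, so that its groups overlapped. *Tm7sf2* and *Sc5d*, a sterol reductase and a sterol desaturase, were also not called after 24 h in either genotype. With the block, on the spike-in scale, all 3 were called lower in DKO cells, *Mvk* at −0.77 ± 0.25, *Tm7sf2* at −0.77 ± 0.23 and *Sc5d* at −0.90 ± 0.26 (limma adjusted p = 0.019, 0.013 and 0.0094). All 18 sterol genes were then lower, when 38.1% of all genes were. *Tm7sf2* overlaps *Vps51* on the same strand. The promoter-printed *Hmgcs1*, the synthase that commits acetyl units to mevalonate, was at 101 and 107 TPM at 0 h, 56.4 and 45.6 after 24 h, 67.3 and 66.2 after 72 h and 83.1 and 92.4 after 144 h. *Msmo1*, the sterol methyl oxidase, was at 38.7 and 38.9, 17.7 and 14.5, 29.9 and 25.8, and 34.6 and 39.8 TPM. Both fell after 24 h on the spike-in scale, with differences of −1.40 ± 0.27 and −1.61 ± 0.28 (limma adjusted p = 0.0035 and 0.0016).

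**Figure D3:**
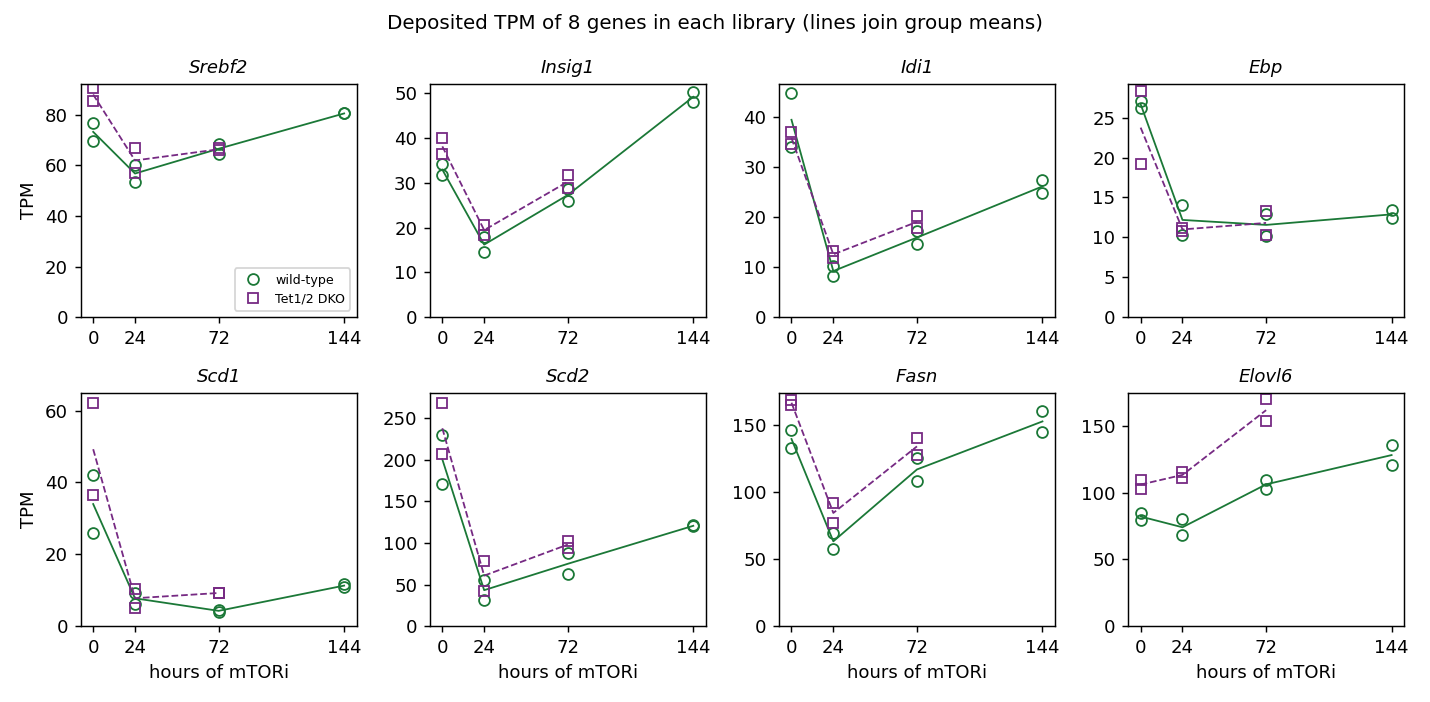
Deposited TPM (vertical axis, from 0) against hours of mTORi for 8 genes in each wild-type (circles) and Tet1/2 DKO (squares) library, with lines through the group means. Insig1 and Fasn dip after 24 h and return in wild-type cells, while in DKO cells both are still below 0 h after 72 h. Idi1 and Scd2 return in part, Ebp and Scd1 stay low, and Elovl6 is highest at the last time of each genotype.

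Within the fatty acid branch, whose enzymes make acetyl-CoA and malonyl-CoA, build palmitate and then elongate and desaturate it, the median difference after 24 h was −1.33 on the spike-in scale and −0.96 in deposited TPM in wild-type cells, and −1.42 and −0.84 in DKO cells, beside the same all-gene medians as for the sterol branch. The summed level was 800 ± 55.9 TPM (SD, n = 2) at 0 h, 389 ± 30.6 after 24 h, 528.5 ± 32.8 after 72 h and 725 ± 12.2 after 144 h in wild-type cells. DKO cells had 958 ± 85.4, 491 ± 37.2 and 656 ± 0.80 TPM.

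*Scd1*, *Scd2* and *Fads2* had the largest 24 h falls of the branch in both genotypes. *Scd1* and *Scd2* encode stearoyl-CoA desaturases, which place the first double bond, and are neighbouring paralogs of similar sequence, so that reads common to both may be split uncertainly. *Scd1* (chr19:44394451-44407709, mm10, minus strand) was at 42.1 and 25.8 TPM at 0 h, 9.24 and 6.30 after 24 h, 4.47 and 4.10 after 72 h and 11.8 and 10.8 after 144 h in wild-type cells, and at 36.4 and 62.1, 5.16 and 10.4, and 9.22 and 9.28 TPM in DKO cells. Every treated library lay below every 0 h library, although the 0 h replicates themselves differed widely. Its difference was −2.40 ± 0.33 after 24 h and −2.48 ± 0.33 after 144 h in wild-type cells (spike-in scale, limma adjusted p = 0.00024 and 3.9e-05) and −3.17 ± 0.33 after 24 h in DKO cells. *Scd2* (chr19:44293676-44306864, mm10, plus strand) was at 229 and 171 TPM at 0 h, 55.6 and 31.0 after 24 h, 87.5 and 62.4 after 72 h and 120 and 121 after 144 h, and at 207 and 268, 42.6 and 78.8, and 94.0 and 102 TPM in DKO cells. The 24 h difference was −2.61 ± 0.28 in wild-type (limma adjusted p = 2.9e-05) and −2.58 ± 0.28 in DKO cells on the spike-in scale. At 144 h *Scd2* was −1.74 ± 0.28 on that scale (limma adjusted p = 0.00024) and −0.71 ± 0.32 in deposited TPM (limma adjusted p = 0.12, and 0.023 with the replicate block).

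*Fads2*, the delta-6 desaturase of polyunsaturated fatty acids, was at 32.1 and 20.6 TPM at 0 h, 5.63 and 4.36 after 24 h, 8.86 and 8.0 after 72 h and 15.6 and 16.8 after 144 h in wild-type cells, and at 35.8 and 48.3, 9.70 and 12.0, and 15.4 and 13.4 TPM in DKO cells. It fell after 24 h by 2.61 ± 0.32 on the log2 spike-in scale in wild-type cells (limma adjusted p = 9.4e-05). Its neighbour *Fads1*, the delta-5 desaturase, was at 21.7 and 16.8 TPM at 0 h and between 19.5 and 21.7 TPM in all treated wild-type libraries, and between 28.3 and 34.5 TPM in DKO libraries. *Fads1* was called lower in 1 of the 5 comparisons with 0 h on the spike-in scale, after 144 h (−0.88 ± 0.33, limma adjusted p = 0.032), where its difference in deposited TPM was 0.11 ± 0.13. The 2 neighbours were thus unlike in course.

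*Fasn*, fatty acid synthase, was at 147 and 133 TPM at 0 h, 69.4 and 57.4 after 24 h, 126 and 109 after 72 h and 161 and 145 after 144 h in wild-type cells, and at 165 and 169, 76.9 and 92.3, and 128 and 141 TPM in DKO cells. The wild-type 144 h libraries overlapped those of 0 h. Its 24 h difference was −1.51 ± 0.26 (limma adjusted p = 0.0017) and its 144 h difference −0.90 ± 0.26 (limma adjusted p = 0.0099) on the spike-in scale, and −1.13 ± 0.12 and 0.13 ± 0.12 in deposited TPM. *Acaca*, the carboxylase that makes malonyl-CoA, was at 49.1 and 50.8, 20.5 and 21.6, 32.1 and 29.9, and 42.8 and 40.6 TPM in wild-type cells and at 62.5 and 61.0, 35.2 and 32.5, and 46.3 and 50.3 TPM in DKO cells. It fell after 24 h in both genotypes on both scales.

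*Acss2*, which makes acetyl-CoA from acetate, differed in timing. It was at 7.91 and 5.78 TPM at 0 h, 9.10 and 6.77 after 24 h, 2.36 and 4.33 after 72 h and 4.0 and 3.56 after 144 h in wild-type cells, and at 8.0 and 7.75, 6.76 and 5.87, and 4.71 and 3.90 TPM in DKO cells. The 0 and 24 h wild-type libraries overlapped, and the later ones lay below both. The difference was −0.15 ± 0.37 after 24 h (limma adjusted p = 0.83) and −1.64 ± 0.37 after 144 h (limma adjusted p = 0.0021) on the spike-in scale. *Gss* overlaps *Acss2* on the opposite strand, with a mean of 19.2 TPM.

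*Elovl6*, which elongates palmitate to stearate, was called higher than at 0 h at the later times as a share of transcripts. It was at 79.2 and 85.2 TPM at 0 h, 68.1 and 80.1 after 24 h, 103 and 110 after 72 h and 121 and 135 after 144 h in wild-type cells, and at 103 and 109, 116 and 111, and 170 and 154 TPM in DKO cells. The wild-type libraries from 72 h on and the DKO libraries from 24 h on lay above all 0 h libraries of their genotype. In deposited TPM it rose by 0.63 ± 0.10 after 144 h in wild-type cells (limma adjusted p = 0.0016) and by 0.60 ± 0.10 after 72 h in DKO cells (limma adjusted p = 0.0026), whereas on the spike-in scale the values were −0.39 ± 0.30 and 0.30 ± 0.30, neither of which passed the test. A same-strand transcript, *Gm43072*, with a mean of 9.94 TPM, overlaps the gene. *Elovl6*, *Acaca*, *Hmgcs1* and *Msmo1* are given by library after their values were seen.

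The 2 branches were set against each other within each library, where the scaling factor nearly cancels. The mean log2(TPM + 1) of the sterol genes minus that of the fatty acid genes was −0.77 and −0.54 at 0 h, −0.61 and −0.53 after 24 h, −0.42 and −0.47 after 72 h and −0.62 and −0.56 after 144 h in wild-type cells. It was −0.99 and −1.01, −0.73 and −0.93, and −0.77 and −0.81 in DKO cells. The 24 and 144 h wild-type libraries overlapped the 0 h libraries, those of 72 h lay above them, and both treated DKO groups lay above DKO 0 h. Of the 6 DKO libraries, 5 lay below every wild-type library in deposited TPM, that of 72 h replicate 1 only just. On the spike-in scale DKO 72 h replicate 1, at −0.7762, was not below wild-type 0 h replicate 1, at −0.7769. Branch means are a description, since the genes of a branch are not replicates.

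**Figure D4:**
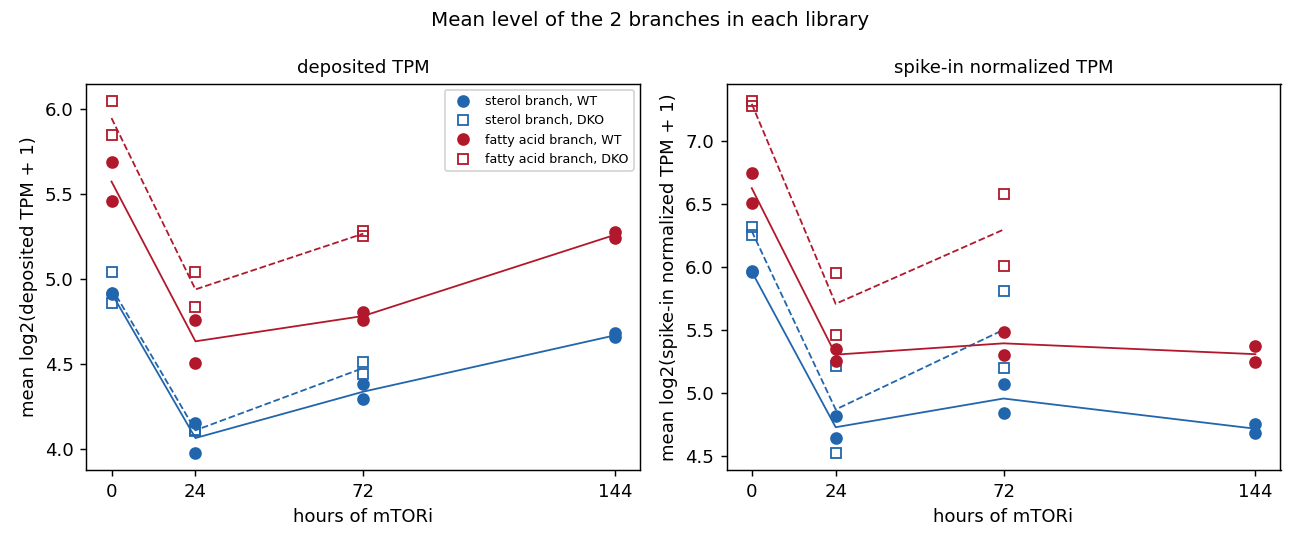
Mean log2 level of the 18 sterol genes (blue) and the 10 fatty acid genes (red) in each library against hours of mTORi, in deposited TPM (left) and after spike-in normalization (right), for wild-type (filled circles, solid lines) and Tet1/2 DKO (open squares, dashed lines). Both branches are lowest after 24 h in deposited TPM, and in wild-type cells after spike-in normalization the later libraries lie near those of 24 h.

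The return after 24 h was tested between successive times. In deposited TPM, 10 genes rose from 24 to 72 h in wild-type cells (5.33% of all genes): *Hmgcs1*, *Idi1*, *Sqle*, *Cyp51*, *Msmo1*, *Hsd17b7*, *Acaca*, *Fasn*, *Elovl6* and *Insig1*. Their differences lay between 0.39 ± 0.11 for *Hmgcs1* and 0.88 ± 0.13 for *Hsd17b7*. *Acss2* and *Pmvk* fell further (5.7% of all genes), by 1.07 ± 0.23 and 0.43 ± 0.10. From 72 to 144 h *Acly*, *Lss* and *Insig1* rose (0.236% of all genes), *Insig1* by 0.83 ± 0.11 (limma adjusted p = 0.023). In DKO cells 9 genes rose from 24 to 72 h (4.47% of all genes). With the replicate block these counts of higher genes were 15 (8.79%), 6 (0.532%) and 15 (9.7%). On the spike-in scale none of the 34 was called in any of the 3 steps, where 0.987%, 0.395% and 1.42% of all genes were called. The blocked spike-in fit called 3 genes higher in the first wild-type step (3.2% of all genes) and 14 in the DKO step (12.7%). It called *Acss2* lower in the first wild-type step (3.4% of all genes) and *Scap* lower in the second (18.5%), where none was higher. Without DKO 24 h replicate 1 the unblocked spike-in fit called 20 genes in the DKO step, all higher, when 31.5% of all genes were called higher. Without DKO 24 h replicate 1 or 2 it called 2 in the first wild-type step (2.97% and 2.93% of all genes). The rise rests on the scale, and in deposited TPM also on single libraries. The count of 10 was 5 without wild-type 24 h replicate 2 (1.08% of all genes) and 3 without 72 h replicate 1 (0.724%). Of the 2 that fell further, 0 were called without 24 h replicate 1 or 72 h replicate 1 (3.18% and 1.04% of all genes called lower) and 1 without 24 h replicate 2 or 72 h replicate 2 (1.75% and 2.84%). The count of 3 was 0 without wild-type 72 h replicate 2 or either 144 h library (at most 0.0165% of all genes) and 1 without wild-type 72 h replicate 1 or either DKO 72 h library (at most 0.0987%). The count of 9 was 4 and 1 without DKO 24 h replicates 1 and 2 (2.9% and 0.817%), and 1 and 0 without DKO 72 h replicates 1 and 2 (0.806% and 0.0219%).

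Wild-type and DKO cells were compared at each time. On the spike-in scale none of the 34 genes was called at 0, 24 or 72 h, where 0.0439%, 0.0439% and 0.329% of all genes were. At 72 h 9 were called, all higher in DKO cells, without DKO 24 h replicate 1 or 2, when 6.9% and 6.82% of all genes were called. With replicate 1 of one genotype paired with replicate 2 of the other, a fit added after the data were seen, 0, 1 and 11 of the 34 were called at the 3 times, each of them higher in DKO cells, against 1.86%, 1.41% and 12.2% of all genes. At an unadjusted p under 0.05 there were 6, 3 and 16 of the 34 genes (8.35%, 4.14% and 23.0% of all genes), and the smallest adjusted p was 0.41, 0.39 and 0.063 (limma). In deposited TPM none was called at 0 h (0.598% of all genes, with 12 of the 34 and 13.9% of all genes at an unadjusted p under 0.05). At 24 h 4 were called (1.37%), with *Pmvk* lower in DKO cells (−0.73 ± 0.10) and *Acaca* (0.66 ± 0.08), *Elovl6* (0.61 ± 0.10) and *Scap* (0.49 ± 0.09) higher. At 72 h 6 were called (4.01%), all higher in DKO cells, namely *Dhcr7* (0.68 ± 0.15), *Fads1* (0.64 ± 0.13), *Acaca* (0.62 ± 0.08), *Elovl6* (0.60 ± 0.10), *Scap* (0.50 ± 0.09) and *Srebf1* (0.45 ± 0.09). The 6 were 0 without wild-type 72 h replicate 2 or either DKO 72 h library (at most 0.236% of all genes called higher), 1 without wild-type 72 h replicate 1 (0.219%) and 3 without wild-type 144 h replicate 1 or 2 (1.39% and 1.38%). The 3 higher genes of 24 h were 0 without wild-type 24 h replicate 1 (0.154%) or DKO 24 h replicate 1 (0.0384%) and 1 without DKO 24 h replicate 2 (0.137%). *Pmvk* was not called without either wild-type 24 h library or DKO 24 h replicate 2.

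The response to mTORi itself was not called different between the genotypes for any of the 34 genes. Calls among all genes were 0.00548% after 24 h and 0.0% after 72 h on the spike-in scale, and 0.0% and 0.0% in deposited TPM. The DKO minus wild-type difference of the 24 h responses ranged from −0.99 for *Me1* to 0.36 for *Idi1* on the spike-in scale, with standard errors between 0.37 and 0.53, and from −0.78 to 0.54 in deposited TPM for the same 2 genes. A test not passed does not show that the responses were alike. *Me1*, malic enzyme, a source of NADPH, was at 14.4 and 14.6 TPM at 0 h and 16.2 and 12.0 after 24 h in wild-type cells, and at 18.6 and 22.9 and then 10.4 and 12.0 TPM in DKO cells. At an unadjusted p under 0.05, 4 genes differed in deposited TPM (3.87% of all genes) and 1 on the spike-in scale (1.22%) after 24 h, and 2 (3.71%) and 0 (0.993%) after 72 h.

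**Figure D5:**
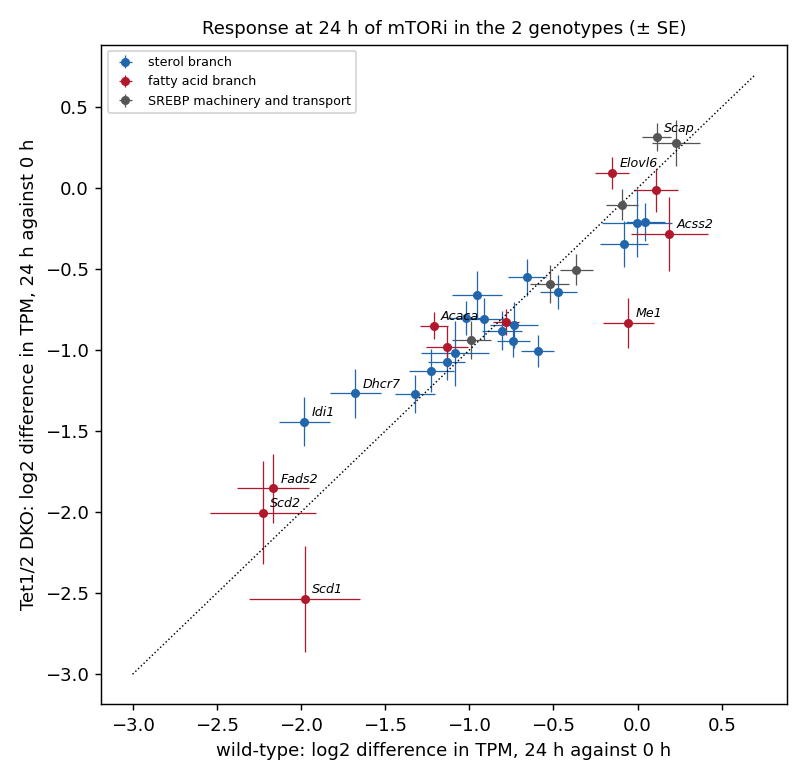
Log2 difference in deposited TPM between 24 h of mTORi and 0 h for each of the 34 genes in wild-type (horizontal) and Tet1/2 DKO cells (vertical), ± SE, with the line of equal response dotted. Points lie along the line from Scd1, Scd2 and Fads2 at the low end to Scap at the high end, and Me1 lies farthest below it.

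Another 28 genes of the pathway, chosen for their roles, of which *Nr1h3* was below the filter, were read beside the 34. At 24 h in wild-type cells 4 of 27 fell on the spike-in scale, *Mid1ip1* (−1.88 ± 0.31), *G6pdx* (−1.42 ± 0.30), *Pgd* (−1.19 ± 0.27) and *Slc25a1* (−1.04 ± 0.29), and 0 rose, against 8.73% and 1.25% of all genes. With the replicate block 8 fell, against 25.7%. MID1IP1 activates acetyl-CoA carboxylase, SLC25A1 exports citrate from mitochondria, and G6PDX and PGD make NADPH. The highest values were *Abca1* (0.55 ± 0.34) and *Npc2* (0.21 ± 0.35), neither of which passed the test. In deposited TPM 5 fell and 3 rose (14.1% and 15.8% of all genes), and 6 rose with the block (19.3%). Among the 3 was *Abca1*, the cholesterol exporter, at 9.99 and 7.67 TPM at 0 h and 18.2 and 15.8 TPM after 24 h (0.88 ± 0.13, limma adjusted p = 0.0011). At 144 h 17 of 27 were lower on the spike-in scale, led by *Idh1* (−2.50 ± 0.30), *Elovl1* (−1.75 ± 0.32) and *Pgd* (−1.48 ± 0.27), when 50.5% of all genes were. The block gave 25 of 27, when 66.3% of all genes were lower. In deposited TPM 4 were lower (11.7%) and 4 higher (15.6%), with *Abcg1*, another sterol exporter, and *Soat1*, which esterifies cholesterol, highest at 1.28 ± 0.24 and 1.24 ± 0.28. *Abcg1* was at 5.46 and 8.18 TPM at 0 h and 18.5 and 16.9 TPM after 144 h, and *Soat1* at 4.40 and 7.80 and then 14.9 and 15.7 TPM. After spike-in normalization these were 0.35 ± 0.40 and 0.33 ± 0.42, without passing the test. The median of the 27 genes after 24 h was −0.39, beside −0.33 for all genes and −1.14 for the 34. In DKO cells after 24 h 6 of 27 fell on the spike-in scale (18.7% of all genes) and 0 rose (0.505%), and in deposited TPM 5 fell (13.3%) and 2 rose (11.6%). With the block 17 fell on the spike-in scale, against 38.1% of all genes.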

How the data were processed

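RNA-seq values of 14 libraries (8 wild-type, 6 *Tet1/2* DKO, 2 per group) were used. RNA was from sorted cells, with ERCC spike-in added and ribosomal RNA removed. The authors trimmed reads with cutadapt, aligned them to mm10 with STAR and quantified GENCODE VM19 genes with stringtie, and the deposited TPM sum to 1000000 in each library (cutadapt 2.4, STAR 2.7.3a and StringTie 2.0 per the submitters' processing notes). TPM keep no read counts, so depth is unknown and no counting interval is given.

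Spike-in normalized TPM were computed as deposited TPM times 1 factor per library, the median ratio of the authors' normalized table (its first 1999 rows) to deposited TPM over genes of at least 1 TPM. How the authors derived the factors from the ERCC reads is not given in the sources used here. Every factor equals 76 divided by a whole number between 27 and 76, and an error in a factor moves all genes of that library together. The 18232 genes averaging 1 or more on this scale were kept, and log2(value + 1) was fitted in limma 3.58.1 (R 4.3.3) over all 7 groups with a mean-variance trend. P values were adjusted by Benjamini-Hochberg over all genes tested, and a gene was called where this fell under 0.05. Fold changes of low genes are understated by the pseudocount of 1. The fit was tested on simulated data with independent noise for each gene. The simulation held no error of a library's factor and no replicate pairing, so it does not bear on either.

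The genes and lists were chosen with earlier results of these data known. Values by library are given for the 6 machinery genes and, in each branch, for the 4 genes with the largest and the 2 with the smallest wild-type 144 h difference relative to the all-gene median, and for genes called between the genotypes. Ranges stand instead for *Mvk* in DKO cells and for *Fads1* in treated wild-type and all DKO libraries. For the further pathway genes the 3 largest differences each way are named. Replicate numbers were checked for pairing by the correlation across genes of replicate differences between groups. It was between 0.222 and 0.341 within DKO and between 0.0622 and 0.398 within wild-type cells. The paper's reporting summary states that time points of a replicate were processed in parallel, without naming the genotype. Numbers were thus taken to pair libraries within a genotype. The main fit left this pairing out, and the replicate block takes it in. Between the genotypes the correlation was −0.43, −0.50 and −0.29 at 0, 24 and 72 h, so the same numbers do not pair wild-type with DKO libraries, and these comparisons were fitted unpaired. Alternatives were deposited TPM, median centring, a pseudocount of 0.1, no filter, only the groups compared, replicate blocks and leaving out each library. Deposited TPM with each library left out, a crossed pairing of the genotypes and the motif TCACNCCA were added after seeing the data.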

Additional observations from a re-analysis of the deposited data

How the results depend on the processing

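With all libraries kept, the count of genes called lower after 24 h stayed within 1.5 times in wild-type cells, and in DKO cells it left that range only in the fit of the groups compared alone (10). Shares in brackets are of all genes called in the same fit and direction. The DKO count of 10 stood beside 2.85%. Counts of lower genes after 72 h in wild-type cells were 9 with no filter (1.64%), 26 with only the groups compared (25.9%), 26 with the replicate block (25.4%) and 23 with the block in plain TPM (15.2%). In DKO cells after 72 h they were 19 in plain TPM (9.06%), 25 median-centred (16.6%), 5 with a pseudocount of 0.1 (2.19%), 3 with no filter (1.07%), 4 with only the groups compared (2.62%), 22 with the replicate block (13.2%) and 22 with the block in plain TPM (12.3%). After 144 h in wild-type cells they were 11 in plain TPM (11.7%), 15 median-centred (15.2%) and 14 with the replicate block in plain TPM (15.6%). Counts of higher genes, 0 on the spike-in scale, were 1 after 72 h (12.6%) and 2 after 144 h (15.6%) in wild-type cells and 1 after 24 h (11.6%) and 2 after 72 h (17.2%) in DKO cells in plain TPM, with the same numbers under its replicate block (16.8%, 19.9%, 15.3% and 23.5%), and 2 after 144 h in wild-type (13.7%) and 1 after 72 h in DKO cells (11.5%) median-centred. Genes called from 24 to 72 h in wild-type cells were 12 in plain TPM (11%), 10 median-centred (10.5%), 1 with only the groups compared (5.86%), 4 with the replicate block (6.6%) and 17 with the block in plain TPM (17.7%). From 72 to 144 h they were 3 (0.357%), 2 (0.23%), 7 (50.3%), 1 (18.6%) and 6 (1.14%), and from 24 to 72 h in DKO cells 9 in plain TPM (5.96%), 4 median-centred (4.61%), 14 with the replicate block (13.6%) and 15 with the block in plain TPM (12.8%). DKO against wild-type calls after 24 h were 4 in plain TPM (1.37%) and 4 median-centred (1.2%), and after 72 h they were 6 (4.01%) and 3 (1.69%). A block within each genotype leaves no test of DKO against wild-type cells at 1 time. With the crossed pairing of the genotypes 0 (1.86%), 1 (1.41%) and 11 (12.2%) were called at 0, 24 and 72 h. The cause of these changes was not tested.

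The sterol median relative to that of all genes, negative in every setting, was −1.20, −0.87 and −1.08 with no filter after 24, 72 and 144 h in wild-type and −1.34 after 24 h in DKO cells, where more low genes enter the all-gene median. After 144 h it was −0.33 in plain TPM, with or without the block, and −0.37 with a pseudocount of 0.1. The fatty acid median was −1.28, −1.001 and −0.98 with no filter in wild-type and −1.32 and −0.87 after 24 and 72 h in DKO cells. In plain TPM, with or without the block, it was −0.66 and −0.26 after 72 and 144 h in wild-type and −0.85 and −0.68 in DKO cells, and with a pseudocount of 0.1 it was −0.69 and −0.30 in wild-type and −0.89 after 24 h in DKO cells.

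Leaving out 1 library gave between 10 (1.46% and 1.58%) and 24 (17.2%) lower genes after 24 h, 1 (0.318%) and 22 (17.2% and 17.1%) after 72 h and 16 (21.5%) and 32 (between 52.6% and 59.7%) after 144 h in wild-type cells, and 17 (4.17%) and 32 (47.7%) after 24 h and 1 (0.362%) and 17 (7.95% and 7.93%) after 72 h in DKO cells. Calls between 24 and 72 h ranged from 0 (between 0.0713% and 1.41%) to 2 (2.97% and 2.93%) in wild-type cells and from 0 (between 0.225% and 1.75%) to 20 (31.8%, without DKO 24 h replicate 1) in DKO cells, and calls of DKO against wild-type after 72 h from 0 (at most 0.439%) to 9 (6.9% and 6.82%, without DKO 24 h replicate 1 or 2). Sterol medians ranged from −1.07 to −0.80, −0.72 to −0.51 and −0.48 to −0.42 after 24, 72 and 144 h in wild-type and from −1.06 to −0.83 after 24 h and −0.77 to −0.54 after 72 h in DKO cells. Fatty acid medians ranged from −1.08 to −0.91, −0.75 to −0.64 and −0.46 to −0.29, and from −1.0 to −0.90 and −0.78 to −0.72.

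Genes whose sign turned against the spike-in value did so in plain TPM, with or without the block, and part of them also median-centred (second value). After 144 h these were 13, *Srebf1* (0.0067), *Srebf2* (0.14), *Insig1* (0.56, 0.39), *Insig2* (0.084), *Mvk* (0.19, 0.046), *Hsd17b7* (0.13, 0.043), *Lss* (0.24, 0.078), *Fdft1* (0.12), *Cyp51* (0.020), *Tm7sf2* (0.070), *Fasn* (0.13), *Fads1* (0.11) and *Elovl6* (0.63, 0.45). After 24 h they were *Scap* (0.11, 0.021), *Insig2* (0.23, 0.15), *Acss2* (0.19, 0.12), *Fads1* (0.11, 0.018) and *Tm7sf2* (0.047) in wild-type and *Scap* (0.31, 0.22), *Insig2* (0.28, 0.20) and *Elovl6* (0.094) in DKO cells. After 72 h they were *Elovl6* (0.37, 0.23), *Insig2* (0.12, 0.0066), *Scap* (0.068), *Mvk* (0.055), *Tm7sf2* (0.11) and *Fads1* (0.046) in wild-type and *Scap* (0.27, 0.068), *Insig2* (0.21, 0.015) and *Fads1* (0.030) in DKO cells. Without a single library the 24 h values of *Scap* and *Insig2* in DKO cells ranged from −0.58 to 0.093 and from −0.80 to 0.28, and those of *Insig2* and *Acss2* in wild-type cells from −0.34 to 0.099 and from −0.36 to 0.062.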
